A study of Mus musculus with 16 samples.

Results

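The cytosolic ribosomal protein genes encode the protein part of the ribosome in the cytoplasm. They were taken by symbol, as every gene whose name begins with Rpl or Rps and a digit plus Rpsa, Rplp0, Rplp1 and Rplp2, with pseudogene symbols (-ps) and the S6 kinases (Rps6k) dropped, which gave 92 of 48440 genes. Of these, 46 are core proteins of the large subunit, 31 are core proteins of the small subunit and 15 are paralogues, processed copies or genes that only share the name. RNA-Seq was done on GFP+ intestinal stem cells (ISCs) sorted from Lgr5-EGFP mice, in which EGFP is expressed from the Lgr5 gene. The mice were females fed a 60% high-fat diet for 16 weeks, then given vertical sleeve gastrectomy (VSG), in which about 80% of the stomach is removed, or a sham operation. All were killed 4 weeks later, after an overnight fast and 15 minutes after a liquid mixed meal. All groups therefore carried the same allele, diet and meal, and VSG and sham differed by the surgery. The methods give an age of 8 to 16 weeks for the animals of all experiments, with no separate age for these mice. From 7 mice there were 16 libraries, each from 1 segment of 1 mouse: 4 VSG and 2 sham in the duodenum, 4 VSG and 2 sham in the jejunum from the same 6 mice, and 2 VSG and 2 sham in the ileum.

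A ribosome holds 1 copy of nearly every core protein, and each is made from its own gene, so these messenger RNAs are among the most abundant in growing cells and tend to move together. Many begin with a run of pyrimidines at the transcription start, through which mTORC1 signaling and the RNA-binding protein Larp1 control their translation. In the crypt, dividing stem and progenitor cells make many ribosomes, whereas absorptive enterocytes on the villus no longer divide. RNA-Seq reads the level of the messenger RNA and says nothing of how much of it is translated.

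Of the 92 genes, 67 were matched by symbol to a RefSeq promoter on GRCm38.p6, 57 of them core genes. A run of at least 7 letters C or T that starts with C within 5 bases of the annotated start was found in 22 of 57 core genes (38.6%), against 7.64% of all 27025 genes with a window of the same length. The ETS-type motif CCGGAAG, searched on both strands from 250 bases before to 50 bases after the start, was in 24 core genes (42.1%) and in 9.93% of all genes. Both were present in 12 core genes, and in 1 of these they overlapped. The median GC content was 58.3% in core windows and 52.7% in all windows. These are matches of letters and not measured sites. The first lines below show 30 bases, from 10 before the annotated start, of genes with such a run, and the last lines show genes without one that differed most in the comparisons. Capitals mark the run as counted, from its first C no more than 5 bases before the start, so that pyrimidines further upstream, as in Rpl7a, are left in lower case.
Rpl7a (chr2:26910797-26910826, plus): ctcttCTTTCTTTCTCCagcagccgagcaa
Rpl13a (chr7:45128726-45128755, minus): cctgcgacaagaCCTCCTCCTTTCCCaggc
Rpl27a (chr7:109519185-109519214, plus): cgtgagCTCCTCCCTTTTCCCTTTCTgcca
Rplp2 (chr7:141447641-141447670, plus): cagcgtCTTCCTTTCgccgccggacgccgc
Rps15a (chr7:118116128-118116157, minus): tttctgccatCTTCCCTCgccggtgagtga
Rps27 (chr3:90213629-90213658, minus): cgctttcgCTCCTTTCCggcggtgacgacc
Rps27rt (chr9:114982720-114982749, minus): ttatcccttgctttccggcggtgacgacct
Rpl12 (chr2:32961702-32961731, plus): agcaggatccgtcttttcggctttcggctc
Rps28 (chr17:33824543-33824572, minus): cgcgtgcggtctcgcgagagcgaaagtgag
The pair Rps27 and Rps27rt shows a run of 9 pyrimidines in the parent and of 6 in its copy.

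The values were counts normalized by the authors within each segment. For levels across segments, the 16 libraries were put on 1 scale (jointly scaled values), since the 3 tables had been normalized separately. A single read stood for 0.586 to 2.07 normalized counts, which implies a depth of 10.9 to 63.6 M reads per library. The lowest depth was that of ileum sham 2, and the next lowest was 21.5 M in ileum sham 1. Some libraries stood apart. The library labelled jejunum sham 1 had 5.0% of its counts on Rn18s-rs5, a gene of ribosomal RNA sequence, and 9.60% on mitochondrial genes. Its summed stem cell markers added up to 18089 jointly scaled counts, against 55961 to 74936 in the VSG jejunum and 69892 in the other sham. Its 18 enterocyte markers summed to 2873841, against 735751 to 1362847 in the VSG jejunum and 1159689 in the other sham. Lgr5, the gene that drives the sorted GFP, was listed at 0 in this library and in ileum sham 1. The library labelled jejunum VSG 1 held Fabp6, the ileal bile acid binding protein, at 191139 jointly scaled counts, where the remaining jejunal libraries held 15.5 to 285 and the ileum 47861 to 347560. For VSG against sham in each segment and for the differences between segments, counts or medians are given with and without these libraries. The correlations between genes are given with them only. For the surgery's effect in jejunum against duodenum, no median without sham 1 is given. In bulk sorted cells, fewer cells of a type and less RNA per cell cannot be told apart, and p-values measure the spread between these libraries.

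Ribosomal protein genes made up a few percent of all normalized counts, most in the duodenum and least in the ileum. In the duodenum they took 7.91%, 5.0%, 5.87% and 5.84% of counts after VSG and 4.77% and 6.07% after sham. In the jejunum the shares were 6.09%, 4.15%, 5.39% and 5.68% after VSG and 2.00% and 5.79% after sham. In the ileum they were 4.18% and 2.81% after VSG and 2.46% and 2.42% after sham. VSG and sham overlapped in the duodenum and jejunum, and both ileal VSG libraries were above both sham libraries. Jejunum sham 1 had the lowest share of all 16 libraries. The summed large-subunit values were 1.41 to 1.56 times the summed small-subunit values, with the highest ratio also in jejunum sham 1.

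**Figure D1:**
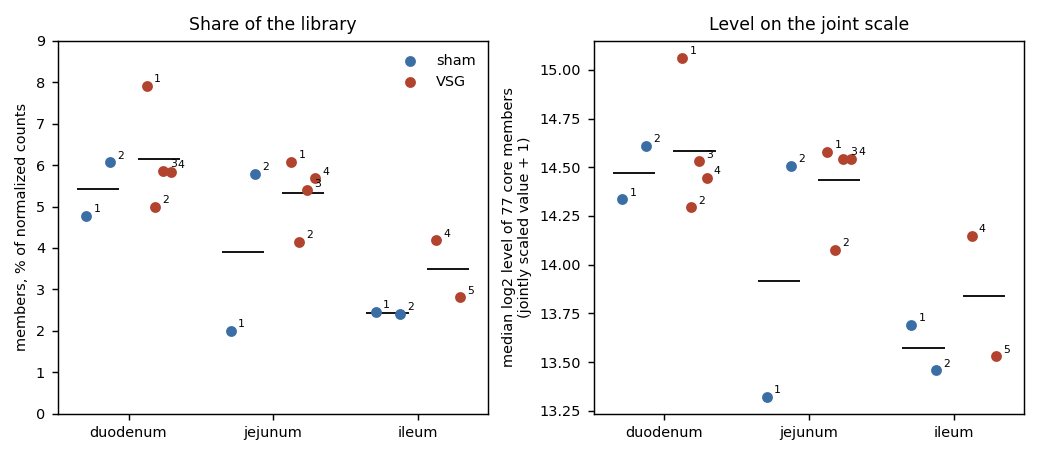
Share of all normalized counts on ribosomal protein genes (left, in percent) and median level of the 77 core genes (right, log2 of the jointly scaled value + 1) in each library. Points are libraries with their replicate number, blue for sham and red for VSG, and bars are group means. Jejunum sham 1 lies lowest in both panels, at 2.00% and 13.32, and the 4 ileal libraries lie below the 6 duodenal ones.

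The level per gene differed widely even though the ribosome needs equal amounts of nearly every core protein. Over the 16 libraries, the mean jointly scaled value per kilobase of spliced transcript ran from 4346 to 64983, a nearly 15-fold range, with a median of 26192. The highest were Rpl41 at 64983, which encodes the smallest ribosomal protein, Rps12 at 60931, Rplp1 of the acidic stalk at 60474, Rps18 at 44623 and Rpl23a at 43276. The lowest were Rps20 at 4346, Rpl27 at 6329, Rpl35 at 10523, Rpl27a at 10989 and Rpl38 at 11319. For Rps20 the annotated transcript is 3706 nt long, and a value per kilobase depends on the model chosen. The counting also depends on sequence that genes share. Core transcripts had a median of 47.2% of their length in 85-base runs, the length of a read, found in another gene, and the share passed 50% in 33 of 77. Values of such genes could be split between copies, so single genes with a high share are uncertain. Pseudogene symbols dropped by the rule, 274 in all, held 0.0727% to 0.271% of counts.

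The core genes moved together from library to library. The correlation of a core gene's log2 level with the median of the other core genes over the 16 libraries had a median r of 0.93 and ran from 0.67 to 0.98, and 72 of 77 were above 0.8. After the mean of each segment was removed, the median r was 0.91. This is a description, since the libraries share mice, and every gene of a library shares its depth and scaling. The least coupled core genes were Rps28 at 0.67, Rpl38 at 0.69 and Rpl30 at 0.76. Among 12 paralogues and other genes the median r was 0.64, and the highest was Rpl22l1 at 0.86. The lowest were Rps27rt at 0.03, Rps27l at 0.14 and Rps4l at 0.40. After the mean of each segment was removed, they were at 0.39, −0.04 and 0.18. Rps27l is a p53-responsive relative of Rps27.

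**Figure D2:**
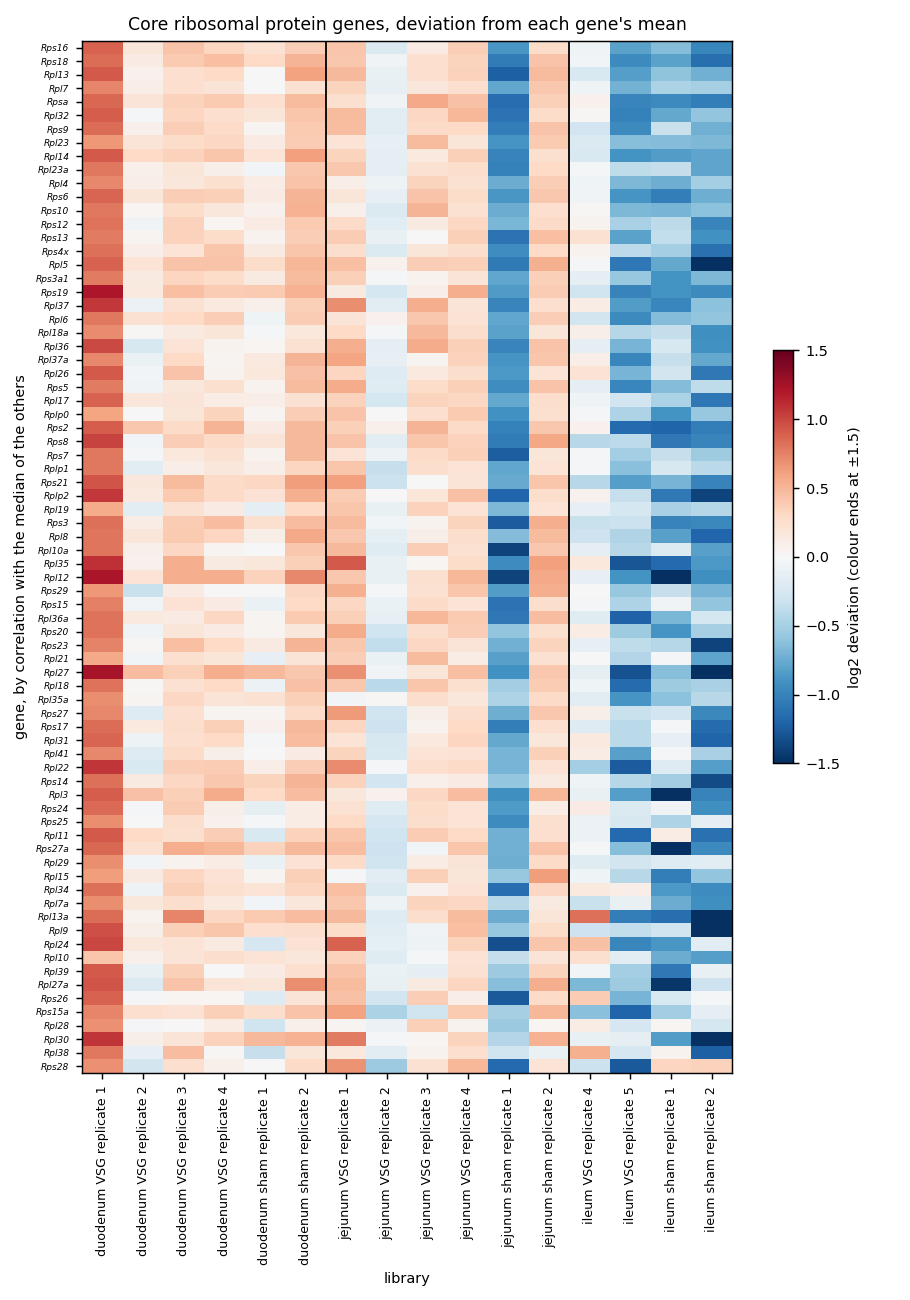
Deviation of core genes from their own means (rows, 1 gene not shown) in each of the 16 libraries (columns), as log2 of the jointly scaled value + 1, with red above and blue below the mean and the colour ending at 1.5 in either direction. Rows are ordered by their correlation with the other core genes, and duodenum VSG 1 is red and jejunum sham 1 blue in almost every row.

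The first question of the design was whether VSG changed these genes in the ISCs of each segment. In the duodenum none passed the study's thresholds (p under 0.05, adjusted p under 0.2, absolute log2 fold change above 0.5 and mean above 50) when applied to the limma fit, which called 0.0237% of all genes tested. The study applied these thresholds to another test, DESeq2 on counts, which called far more genes in every segment. The shares of genes called here are those of limma on the normalized counts. It called only 4, 2 and 0 of all genes tested in the duodenum, jejunum and ileum. That none passed here therefore does not speak for the study's own test. None of the 89 genes tested in the duodenum had an unadjusted p under 0.05 in limma, against 6.27% of all genes. The lowest p was 0.0768. The median log2 fold change of VSG against sham was 0.08 over these genes and 0.01 over all genes, with a median standard error of 0.26 per gene. The VSG mean was higher for 73 of 89 genes, and for 50.7% of all genes. Without VSG 1 or without sham 1, the median was −0.04 or −0.03.

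Only 2 ribosomal protein genes had all duodenal VSG libraries above both sham libraries, where 6.44% of all genes did so, and none had them all below, where 8.01% did. Rps27rt, the close copy of Rps27, had normalized counts of 1101, 1099, 1130 and 867 after VSG and 426 and 812 after sham. All VSG values lay above sham, and the 2 sham libraries were far apart. Its log2 fold change was 0.83 ± 0.42 (SE) with an adjusted p of 0.846 in limma and an exact permutation p of 0.0667, the smallest that 4 against 2 libraries allow. Rps27rt shares 90% of its transcript with other genes, so its counts are uncertain. Rpl7a, a large-subunit protein, had 57614, 42071, 44756 and 42205 normalized counts after VSG and 37355 and 41912 after sham. The gap between the groups was small beside the spread within VSG. Its log2 fold change was 0.23 ± 0.23 (SE), with an adjusted p of 0.888 in limma.

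In the jejunum the ribosomal protein genes were higher on average after VSG, but this rested on 1 sham library. None passed the study's thresholds in limma, which called 0.0126% of all genes, and none of 89 had a limma p under 0.05, against 6.04% of all genes, with a lowest p of 0.104. The median log2 fold change was 0.40, against 0.11 over all genes, and 86 of 89 genes were higher after VSG, against 55.0% of all genes. All 46 large-subunit and all 31 small-subunit core genes were on the higher side. Without jejunum sham 1 the median was −0.15, with no gene past p under 0.05. Without jejunum sham 2, which leaves the library of low stem cell markers as the only sham, the median was 0.91 and 51 genes passed. Without jejunum VSG 1, the library with Fabp6, the median was 0.35. Not 1 gene had its VSG libraries all above or all below the sham libraries, where 6.59% of all genes were above and 6.21% below. The proliferation markers moved in the same way between these libraries, with sums of 13317 in jejunum sham 1, 55380 in the other sham and 32669 to 50481 after VSG, and their part in the result was not tested.

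In the ileum the genes were again higher on average after VSG, with 2 libraries on each side. No gene passed the study's thresholds in limma, and the share of all genes called was 0.00%. At an unadjusted p under 0.05, 3 of 89 genes passed, Rpl10, Rpl34 and Rplp2, where 3.28% of all genes did. The count was 1 without sham 2 and 5 without VSG 5. The median log2 fold change was 0.41, against 0.24 over all genes, and 73 of 89 genes were higher, against 57.0% of all genes. Over the genes above 0 in all 16 libraries the median was 0.03. Without VSG 4 the median of the ribosomal protein genes was 0.05. All VSG values lay above sham for 27 genes, where 17.0% of all genes did so, and below for 2, where 11.6% did. An exact permutation test of 2 against 2 libraries cannot give a p below 0.333. Without sham 1, in which Lgr5 was listed at 0 and 9.87% of counts were mitochondrial, the median was 0.37 and 3 genes had a p under 0.05. The ileal stem cell markers summed to 38949 and 27215 after VSG and 13463 and 19468 after sham, with no overlap, and their part in the result was not tested.

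Rplp2, of the acidic stalk that recruits elongation factors, had ileal normalized counts of 8925 and 6685 after VSG and 3970 and 3183 after sham. Rpl34 had 8104 and 7836 after VSG and 3972 and 3737 after sham, and Rpl10, near the catalytic center, had 17888 and 13339 after VSG and 8860 and 8320 after sham. In all 3 genes the sham libraries were close to each other and below both VSG libraries. The log2 fold changes were 1.12 ± 0.40, 1.05 ± 0.36 and 0.85 ± 0.33 (SE), each with an adjusted p of 0.736 in limma.

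Among genes without overlap in the ileum, Rps12l1, Rpl30 and Rpl13a had the largest differences upward. Rps12l1, a processed copy of Rps12, had 878 and 368 normalized counts after VSG and 101 and 47.6 after sham, a log2 fold change of 3.01 ± 1.47 (SE). Every 85-base run of its transcript is also in Rps12 or other genes, so its counts cannot be assigned to it with certainty. Rpl30, a large-subunit protein that also takes part in selenocysteine insertion, had 3937 and 3839 after VSG and 2334 and 595 after sham, a log2 fold change of 1.72 ± 0.76. When Rpl30 was summed with the 10 genes that share its sequence, the jointly scaled values were 9817 and 6623 after VSG and 6667 and 3283 after sham, and the groups overlapped. Rpl13a, which also serves in interferon-regulated translation silencing, had 31847 and 8694 after VSG and 8066 and 4676 after sham, a log2 fold change of 1.44 ± 0.68. Its VSG mean came mainly from VSG 4. All 3 had an adjusted p of 0.736 in limma.

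The 2 genes without overlap downward were small-subunit proteins. Rps28 had 3193 and 1663 normalized counts after VSG and 4914 and 4966 after sham, a log2 fold change of −1.10 ± 0.50 (SE) with an adjusted p of 0.736 in limma. Rps15a had 4186 and 2797 after VSG and 4406 and 5719 after sham, a log2 fold change of −0.55 ± 0.45. The VSG libraries lay below sham in both, and for Rps15a VSG 4 was close to sham 1.

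**Figure D3:**
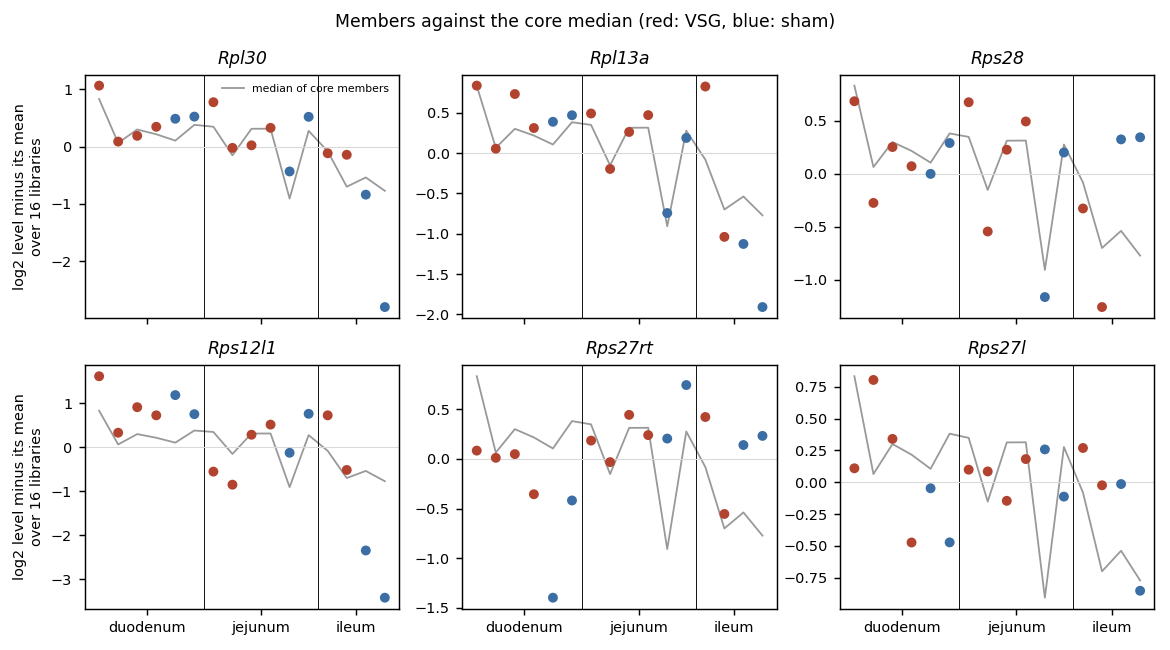
Level of 6 genes in each of the 16 libraries, as log2 of the jointly scaled value + 1 minus the gene's mean over the libraries. Points are libraries in the order of the segments, red for VSG and blue for sham, and the grey line is the median of the core genes. Rpl30 and Rps12l1 drop below the line in ileum sham 2, Rps28 lies above it in both ileal sham libraries, and Rps27rt and Rps27l do not follow it.

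**Figure D4:**
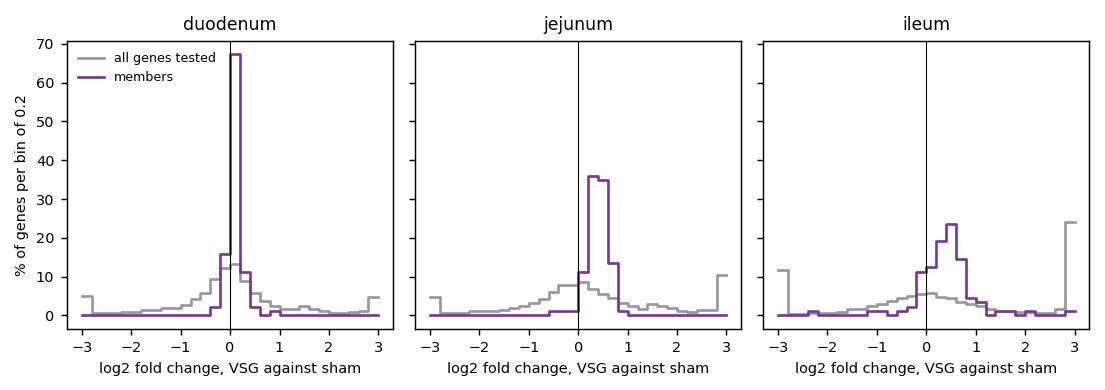
Distribution of the log2 fold change of VSG against sham in each segment, as the percent of genes in bins of 0.2, for the 89 ribosomal protein genes tested (purple) and all genes tested (grey). The end bins also hold all values beyond them. The purple curve is narrow and lies at a median of 0.08, 0.40 and 0.41 from left to right.

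The difference between the surgery's effects in the jejunum and duodenum was tested within mice, on the jejunal value less the duodenal value of each of 6 mice. No ribosomal protein gene had a p under 0.05 in limma, where 4.10% of all genes did, and the lowest p was 0.0933. The median difference was 0.30, against 0.10 over all genes. Without sham 2, which leaves the mouse of jejunum sham 1 as the only sham, 23 genes passed.

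The second question was how the level of these genes differed between segments. From duodenum to jejunum the median log2 difference was −0.28, against −0.19 over all genes tested and −0.02 over genes above 0 in all 16 libraries. No gene passed an adjusted p of 0.05 in limma in either direction, where 0.301% of all genes were higher and 0.0799% lower. At an unadjusted p under 0.05, 9 genes were lower, as were 4.24% of all genes. Without jejunum VSG 1 and jejunum sham 1 the median was −0.05.

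From jejunum to ileum the median was −0.40, against −0.49 over all genes tested and −0.03 over genes above 0 in all libraries. Again none passed in either direction, where 0.270% of all genes were higher and 1.19% lower, and 26 genes were lower at an unadjusted p under 0.05, as were 15.3% of all genes. The lowest adjusted p was 0.0513, of Rpl27a, at −0.91 ± 0.20 (SE). Without the jejunal libraries VSG 1 and sham 1 the median was −0.67 and 3 genes passed, and without ileum VSG 4 alone 7 passed.

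Ribosomal protein genes were lower in the ileum than in the duodenum. The ileal side of this difference rests on 3 mice, those of ileum VSG 4, sham 1 and sham 2. The duodenal and jejunal libraries of the other mice enter the fit as well. With the mouse as a block, 28 of 89 genes fell at an adjusted p under 0.05 in limma, where 8.83% of all genes did, and none rose, where 3.40% of all genes did. At an unadjusted p under 0.05, 56 were lower, against 24.0% of all genes. The 28 genes were 13 of the large-subunit core, 13 of the small-subunit core, Rpl22l1 and Rps12l1. The median log2 difference was −0.66. It was −0.77 over all genes tested, in which many genes are near 0 in the ileum, and −0.05 over the 7240 of them above 0 in all 16 libraries. The count was 0 under limma without trend and 3 when each library was scaled to the same median of the ribosomal protein genes. It also depended on single libraries. It was 1 without ileum sham 2, the library of lowest implied depth at 10.9 M reads. The count was 4 without duodenum sham 1 or without duodenum sham 2, 44 without jejunum sham 1 and 18 without jejunum VSG 1. It was 13 to 18 without duodenum VSG 1, 2 or 3, jejunum VSG 2, 3 or 4, jejunum sham 2 or ileum sham 1. The VSG libraries alone take the ileal side of the difference from 1 mouse, that of ileum VSG 4, and gave a median of −0.42.

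**Figure D5:**
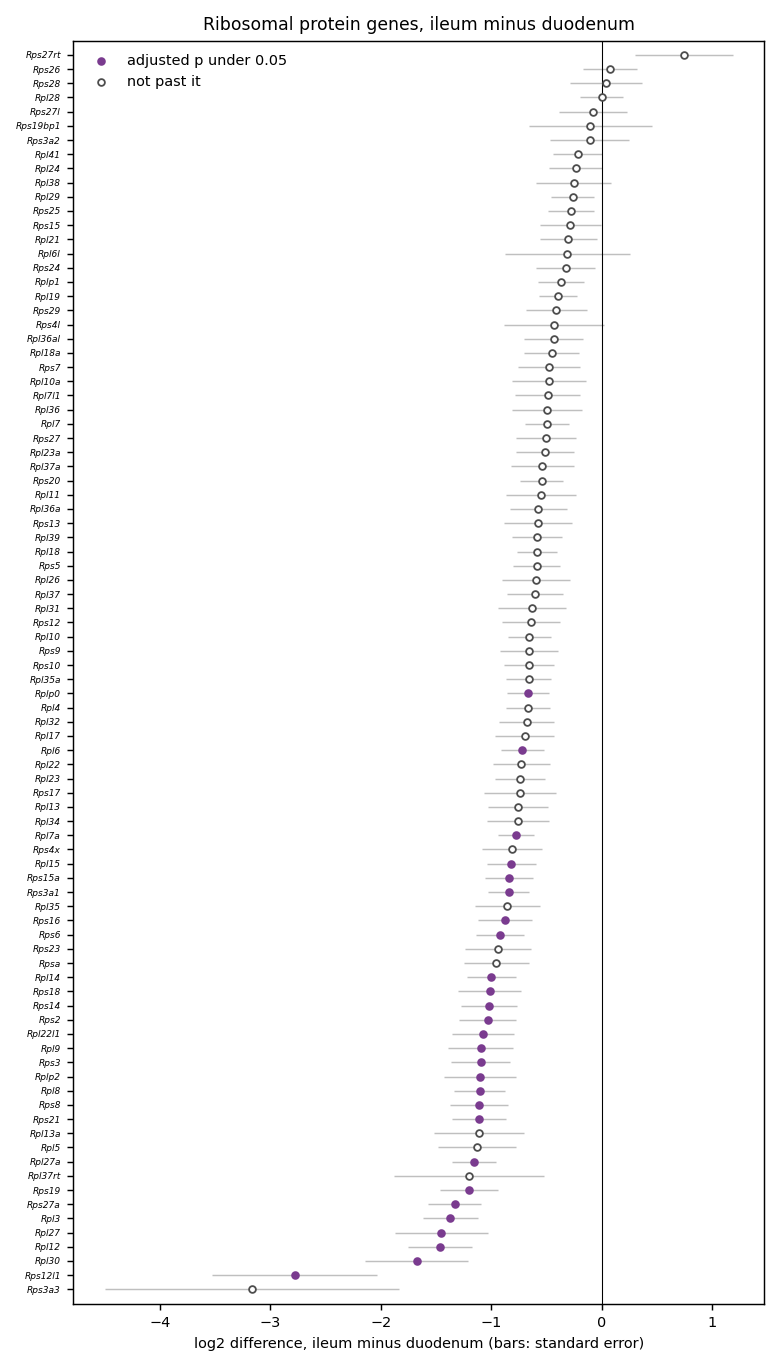
Log2 difference of the ileum from the duodenum for the ribosomal protein genes tested (1 gene not shown), with the standard error as a bar. Filled points have an adjusted p under 0.05 in limma and open points do not. The points run from −3.17 for Rps3a3, an open point with a wide bar, to 0.75 for Rps27rt, and 4 of the points lie above 0.

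Rpl3, at the catalytic core of the large subunit, had jointly scaled values of 57835, 41549, 39343 and 45277 in the duodenum after VSG and 37748 and 42371 after sham. In the ileum it had 28309 and 17364 after VSG and 9433 and 15376 after sham. All ileal values were below all duodenal ones, and the ileal sham libraries were the lowest. The log2 difference was −1.37 ± 0.25 (SE), with an adjusted p of 0.00984 in limma. Rpl3 shares 82.0% of its transcript with other genes, mainly its pseudogene Rpl3-ps1.

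Rpl12, of the stalk base where elongation factors bind, had 45989, 22723, 28864 and 28659 in the duodenum after VSG and 25064 and 32531 after sham. Its ileal values were 18063 and 10576 after VSG and 5444 and 10412 after sham, again with no overlap. The log2 difference was −1.46 ± 0.29 (SE), with an adjusted p of 0.0147 in limma. The call was lost without ileum sham 1, at an adjusted p of 0.0545, or without ileum sham 2, at 0.0762.

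Rpl30 had 14570, 7392, 7928 and 8845 in the duodenum after VSG and 9750 and 10005 after sham. In the ileum it had 6417 and 6300 after VSG and 3885 and 994 after sham, so that all ileal values were lower and ileum sham 2 was far below the rest. The log2 difference was −1.68 ± 0.47 (SE), with an adjusted p of 0.0427, and −0.79 without ileum sham 2, with an adjusted p of 0.0929 in limma. Rps12l1 had the largest called difference, −2.78 ± 0.75 (SE), with an adjusted p of 0.0383. It ran from 1087 to 2652 in the duodenum and from 79.5 to 1431 in the ileum, so that the segments overlapped. The calls of Rpl30 and Rps12l1 were lost in most fits that left out 1 library, with adjusted p-values of up to 0.118 and 0.146.

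The remaining core genes past the threshold that are reported here fell by 0.67 (Rplp0) to 1.45 (Rpl27) on the log2 scale. They included Rps27a, a ubiquitin fusion, at −1.33, and Rps19, which is mutated in Diamond-Blackfan anaemia, at −1.20. Rps19 averaged 20164 ± 5858 (SD, n = 6) in the duodenum, 14401 ± 4425 (SD, n = 6) in the jejunum and 8085 ± 2019 (SD, n = 4) in the ileum. Rps6, the S6 kinase substrate, was at −0.92. These genes come from both subunits and from many chromosomes, and the core as a whole lies on 19.

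The stalk proteins had estimates of different size, and the differences between these genes were not tested. Rplp0, the stalk base, averaged 65800 ± 10371 (SD, n = 6) in the duodenum and 39917 ± 10418 (SD, n = 4) in the ileum, a log2 difference of −0.67 ± 0.19 (SE) with an adjusted p of 0.0441 in limma. Rplp2 was at −1.10 ± 0.32, just inside the threshold with an adjusted p of 0.04996. Rplp1, its partner in the stalk, was at −0.37 ± 0.20, with an adjusted p of 0.237. Rpsa, which doubles as the laminin receptor, was at −0.95 ± 0.29, just outside with an adjusted p of 0.0564. Rpl5 and Rpl11, which bind Mdm2 when ribosome assembly fails, were at −1.13 ± 0.35 and −0.55 ± 0.32, with adjusted p-values of 0.0586 and 0.252.

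A few core genes had estimates of ileum from duodenum near 0. Rps26 had 35658, 18986, 19566 and 19700 in the duodenum after VSG and 16804 and 21929 after sham, and 25023, 11822, 16362 and 18995 in the ileum. The segments overlapped, and the log2 difference was 0.08 ± 0.25 (SE). Rpl28 was at 0.00 ± 0.20 and Rps28 at 0.04 ± 0.33. The mean over all libraries of a segment was still lower in the ileum. It was 18050 against 22107 in the duodenum for Rps26, 26129 against 30099 for Rpl28 and 6102 against 7510 for Rps28. Ileum VSG 5, at 11822 for Rps26 and 2730 for Rps28, does not enter the estimates. With these standard errors, an estimate near 0 does not show an equal level. To ask which genes departed from the rest, each library was also scaled to the same median of the ribosomal protein genes, a choice made after seeing the data. On that scale 3 of 89 genes passed an adjusted p of 0.05 in limma, where 10.8% of all genes did. The scaling takes out by design the shift that the ribosomal protein genes share, so these shares cannot be compared. Rpl12 at −0.83 (adjusted p 0.0421) and Rpl3 at −0.74 (adjusted p 0.0480) were lower than the other ribosomal protein genes. Rps26 at 0.71 (adjusted p 0.0346) was higher than the others.

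The pyrimidine run, as counted at the annotated start, did not divide the genes in a clear way. The true start of the transcripts was not measured, so a gene counted without a run could still have one. Core genes with a run had a median log2 difference of ileum from duodenum of −0.77 (22 genes, from −1.16 to 0.08), and those without a run had −0.67 (35 genes, from −1.46 to 0.04). The VSG medians of the genes with and without a run were 0.08 and 0.08 for the duodenum, 0.36 and 0.44 for the jejunum, and 0.45 and 0.34 for the ileum. Among the sequences shown, Rpl27a, with the longest run, was at −1.16. Rpl12 and Rps28, with 6 and 3 pyrimidines and so no run as counted, were at −1.46 and 0.04.

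The paralogues compared here were below their parent genes per length, with the exception of Rpl36al in 1 library. Rps27l, whose product can replace Rps27, stood at 17.2% ± 9.05 (SD, n = 6) of Rps27 in the duodenum, 18.7% ± 8.67 (n = 6) in the jejunum and 20.2% ± 1.23 (n = 4) in the ileum. Its own log2 difference of ileum from duodenum was −0.08 ± 0.31 (SE). Rpl22l1, which can take the place of Rpl22, stood at 32.4% ± 7.50, 26.7% ± 7.62 and 32.7% ± 13.7 (SD) of Rpl22 in the 3 segments. Rpl22l1 fell in the ileum by 1.08 ± 0.28 (SE) on the log2 scale, with an adjusted p of 0.0345 in limma. Rpl36al ran from 29.9% to 109% of Rpl36a, with the highest value in ileum VSG 5, and was at −0.43 ± 0.27. Rpl7l1, which acts in assembly of the large subunit, ran from 2.92% to 10.8% of Rpl7 and was at −0.49 ± 0.29. Rps27rt ran from 1.82% to 11.3% of Rps27, and was at 0.75 ± 0.44, with an adjusted p of 0.264.

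Of the remaining members, Rpl3l, the muscle form of Rpl3, and Rpl10l, the testis form of Rpl10, were at 0 in all 16 libraries. Rpl39l, a testis form of Rpl39, was above 0 only in jejunum sham 2, at 38.6 jointly scaled counts. Rps19bp1, which binds Rps19 and is no ribosomal protein, averaged 590 ± 124 (SD, n = 6) in the duodenum and 417 ± 136 (SD, n = 4) in the ileum. The transcribed processed pseudogenes Rpl37rt and Rps4l and the processed pseudogenes Rpl6l, Rps3a2 and Rps3a3 had log2 differences of ileum from duodenum of −1.20, −0.43, −0.31, −0.11 and −3.17, none with an adjusted p under 0.05. In 85-base runs, Rps3a2 shares 84.7% of its transcript with other genes, Rpl6l 66.5%, Rps3a3 39.4%, Rpl37rt 32.1% and Rps4l 4.42%, so the first 4 of these are uncertain. The 89 tested genes are those with a mean above 10, and 88 of the 92 were above 0 in every library.

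Rack1 and Fau, ribosomal proteins that the naming rule leaves out, had estimates of opposite sign, and the contrast between them was not tested. Rack1, a scaffold on the small subunit, fell from duodenum to ileum by 1.07 on the log2 scale, with an adjusted p of 0.0104 in limma. Its jointly scaled values were 35635 to 56397 in the duodenum and 13326 to 24812 in the ileum, with no overlap. Fau, made as a fusion to a ubiquitin-like protein, was at 0.42 ± 0.17 (SE), with an adjusted p of 0.116.

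Other genes of protein synthesis were taken as lists and read in the same tests, beside the 8.83% of all genes that fell and the 3.40% that rose from duodenum to ileum and the median of −0.77 over all genes. Of 46 genes of ribosome biogenesis, 18 fell from duodenum to ileum at an adjusted p under 0.05 and none rose, with a median of −1.95. Ncl, nucleolin, was at −1.28 (adjusted p 0.0221) and Npm1, nucleophosmin, at −1.71 (adjusted p 0.0125). Of 38 translation factors, 6 fell and 1 rose, with a median of −0.52, and Eef1a1, the most abundant, was at −0.52 (adjusted p 0.115). Of 77 mitochondrial ribosomal protein genes, 8 fell and none rose, with a median of −0.87. Of 16 genes of mTORC1 and its translation targets, 1 fell and none rose, and of 11 p53 targets 1 rose (Cdkn1a, the cell cycle inhibitor p21, at 1.84) and 1 fell. For VSG against sham, the adjusted p was above 0.2 for every gene of these 5 lists in all 3 segments. At an unadjusted p under 0.05 in limma, where 6.27%, 6.04% and 3.28% of all genes passed in the duodenum, jejunum and ileum, the counts were 1, 4 and 1 of 46 biogenesis genes and 0, 0 and 1 of 38 translation factors. They were 0, 2 and 2 of 77 mitochondrial ribosomal protein genes and 1, 1 and 1 of 16 mTORC1 genes. Of the p53 targets, 1 and 2 of 11 passed in the duodenum and jejunum and 0 of 9 in the ileum.

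Markers of cell state moved with the segments as well. From duodenum to ileum 7 of 14 stem cell markers and 7 of 17 proliferation markers fell and none rose, where 8.83% of all genes fell and 3.40% rose. The stem cell markers summed to 70926 to 148511 jointly scaled counts in the duodenum and 13463 to 38949 in the ileum, and the proliferation markers to 47225 to 73359 and 7864 to 30546. Of 18 enterocyte markers 8 rose and 5 fell, and their sums were 353806 to 1107301 in the duodenum and 909571 to 1747861 in the ileum. Of 9 Paneth cell markers 3 fell, of 9 goblet markers 2 rose, of 16 enteroendocrine markers 2 rose and 1 fell, and of 10 tuft cell markers none passed in limma, with 2 lower at an unadjusted p under 0.05. Among 14 immune genes, Cd79a, Cd8a, Itgax and Nkg7 were at 0 in all libraries, and 1 of the 4 tested rose. The sum of the list was nearly all Cd74, an MHC class II chaperone that epithelial cells can also express, at 46291 to 114042 in the ileum and 1216 to 38471 in the duodenum. Ptprc, which encodes CD45, the marker removed in the sort, was at 0, 304, 0 and 0 in the ileum and 14.6 to 1050 in the duodenum. The part of these markers in the lower ileal level of the ribosomal protein genes was not tested.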

How the data were processed

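RNA-Seq libraries were polyA selected and stranded and were sequenced as single-end 85 nt reads. Reads were aligned by the authors with STAR 2.5.3a to the mm10 genome, and Salmon 0.6.0 gave transcript estimates. The authors left out libraries with low mapping and deposited signal values per gene, which are DESeq2-normalized counts scaled within each segment. Most values cannot be turned back into whole reads with a single factor per library, so a factor per gene may remain. The authors also deposited their own log2 fold changes, standard errors, p-values and adjusted p-values per segment, which were not used. Every column of values belonged to 1 library.

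Each segment was tested with limma 3.58.1 (R 4.3.3) with a variance trend on the log2 of the normalized count with a pseudocount of 1. Genes needed a mean above 10, with Benjamini-Hochberg adjustment over all of them. The design took limma because the values are not counts. For segments, the 16 libraries were scaled by median-of-ratios factors over 7291 genes above 0 in all libraries and fitted together with mouse as a block and an adjusted p under 0.05. All 92 genes matched GENCODE M21, which gave transcript lengths, and promoters came from RefSeq (GRCm38.p6). Fold changes of low genes are understated on this scale. Permutation tests were exact and two-sided. The depth given is inferred from the lowest steps of the values.

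The members, lists and tests were chosen with earlier results of these data known. Named genes were the stalk proteins and Rpsa, Rpl5, Rpl11 and Rps19, the paralogues, the 5 highest and lowest core genes per length, up to 3 genes a direction without overlap after VSG, and up to 3 called genes a direction between segments; others were named after their values were seen. The lists were ribosome biogenesis, translation factors, mitochondrial ribosome, mTORC1, p53 targets, stem cell, proliferation, enterocyte, Paneth, goblet, enteroendocrine, tuft and immune genes. Same-numbered VSG and sham libraries share only a number. Duodenum and jejunum of a number come from the same mouse, as the labels' mouse codes show, and the correlation of their deviations was −0.01 to 0.08. The steps were tested on simulated data. A few genes are not reported here. Tried as alternatives were a pseudocount of 0.5 or 10, other filters, equal totals, quantile normalization and limma without trend. A replicate block for VSG against sham, no mouse block for segments, VSG libraries only, and leaving out each library were also tried. Tables were handled with pandas 2.3.3, numpy 2.4.6 and scipy 1.17.1 in Python 3.11.15, and plots drawn with matplotlib 3.10.9.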

Additional observations from a re-analysis of the deposited data

Results flagged for a closer look

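In groups of 4 libraries, the named genes and the core median were searched for a library whose gap to the nearest other, divided by the group's range, was above Dixon's critical value for 4 samples. Chance gives about 1 such group in 20. Rpl23a had 55718 normalized counts in duodenum VSG 1, against 35751 to 38530 in the other 3 VSG libraries. Rps27rt had 867 in duodenum VSG 4, against 1099 to 1130 in the others. Rps3a3 had 241 in jejunum VSG 1, the library with Fabp6, against 33.2 to 51.5 in the others. The median log2 level of the core genes was 14.08 in jejunum VSG 2, against 14.54 to 14.58 in the others. Over all 89 genes tested, 5 had such a library in the duodenum, replicate 1 in 4 of them, and 3 had one in the jejunum.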

How the results depend on the processing

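With a replicate block, the counts of genes past p under 0.05 for VSG stayed at 0 in the duodenum (median 0.14) and 0 in the jejunum (median 0.34), and the block changed no call of VSG against sham; same-numbered VSG and sham libraries share only a number (correlation of deviations −0.05 to 0.05), and the ileal VSG and sham libraries share none. Without each library in turn, the count past p under 0.05 was 0 to 1 in the duodenum (1 without sham 2), 0 to 51 in the jejunum (51 without sham 2) and 1 to 5 in the ileum, and the median log2 fold change was −0.15 to 0.91 in the jejunum and 0.049 to 0.65 in the ileum. The ileal count of 3 was 1 under limma without trend and 1 with equal medians of the genes. For ileum against duodenum, the count of 28 was 15 with no filter, 0 under limma without trend and 3 with equal medians. It was 49 without the mouse as a block, and 1 to 44 without each library. The fit on VSG libraries only takes the ileal side of this difference from 1 mouse. For ileum against jejunum, the count of 0 was 1 with a mean above 50, 1 with quantile normalization and 1 with equal totals. It was 2 without the mouse as a block, 3 without 2 jejunal libraries, and 0 to 7 without each library. The count for the VSG effect of jejunum against duodenum, 0, was 1 under limma without trend and 0 to 23 without each library. The cause was not tested. No called value changed sign. The median for VSG, which has no test, changed sign without sham 1 in the jejunum and without VSG 1 or sham 1 in the duodenum. Over all alternatives, 230 counts and medians were labelled the same and 37 moved. A count was the same within a fixed ratio of the main one. A median for VSG was the same if it shifted by less than the within-group SD of library medians. This SD was 0.34, 0.51 and 0.31 log2 in duodenum, jejunum and ileum, and the segment differences used a pooled SD. The sign changes in the duodenum are thus labelled the same. For single genes, 142 kept the side of the adjusted p threshold in limma and 39 lost it. With 2 libraries on a side, changes the size of the standard errors given are not detectable.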
